A study of Mus musculus with 114 samples.

Results

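The comparison covers adipocytes of mice that ate a chow diet (CD) for 34 weeks against adipocytes of mice that ate it for 20 weeks, which are 14 of the 38 mice of the series. They comprise 8 mice at 34 weeks and 6 mice at 20 weeks, chosen by the diet and time in the sample labels. All were male C57BL/6 mice (C57BL/6J in the study's methods), and the diet began at 6 weeks of age, so the groups were 40 and 26 weeks old. The comparison asks what changes late in the fat cells of mice on chow alone, and it cannot tell time on the diet from age. The methods name a pair of control chows without saying which mice ate which. The methods speak of the final day of each time point, and no harvest date or batch is given in the sources used here. Time and any step done time point by time point thus cannot be told apart. RNA came from perigonadal fat, the pad beside the testes, after a morning fast, and the adipocytes are the cells that float after the pad is digested with collagenase. They were not sorted, so other cells that cling to fat cells can be carried over.

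White adipocytes store triglyceride in a single large droplet, take up glucose under insulin, release fatty acids on fasting and secrete hormones such as leptin and adiponectin. They also answer cytokines. Receptors for interleukin 6, oncostatin M, growth hormone and interferons signal through Janus kinases, which phosphorylate STAT factors that enter the nucleus, and targets of the STAT factors include the SOCS family, which feeds back on the same receptors. In an ageing or obese pad, macrophages gather around dying fat cells, and a subset with high lipid and lysosome genes is known as lipid-associated macrophages.

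Of 10228 genes tested, 5469 (53.5%) differed between 34 and 20 weeks at an adjusted p under 0.05 in limma, 3526 higher (34.5%) and 1943 lower (19.0%) at 34 weeks. These genes are the called genes of the text, and "rose" and "fell" are used of them alone. All 34 week mice lay on one side of all 20 week mice in 2061 genes (20.2%), above them in 1239 (12.1%) and below them in 822 (8.04%). Values are read counts scaled to a library total of 1000000 (CPM), where 1 read equals 0.0700 to 0.0764 CPM at 20 weeks and 0.0804 to 0.108 CPM at 34 weeks, and fold changes are 34 minus 20 weeks on the scale log2(CPM + 1), which understates the change of low genes. For each gene 3 CPM values per group are given, which are the lowest, the median and the highest mouse. The errors of fold changes are standard errors.

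The split between rises and falls depended on the scaling of the libraries. The median gene stood 0.159 higher at 34 weeks in CPM and 0.0149 higher after TMM scaling, which called 2413 genes higher and 2617 lower, so 48.0% of calls were rises in place of 64.5%. A change smaller than that shift has no settled direction. Changes also followed the length of the gene's exons. In 5 equal groups from short to long genes (median exon length 1844, 3258, 4625, 6448 and 10200 bases) the median change was 0.399, 0.285, 0.162, 0.0430 and -0.132. The HFD mice are other animals, on a high fat diet at the same time points. Their medians were 0.234, 0.153, 0.0688, -0.0168 and -0.171 in the same groups of genes. With this trend taken out, 2497 genes were higher and 2375 lower. The cause of the trend was not tested.

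**Figure D1:**
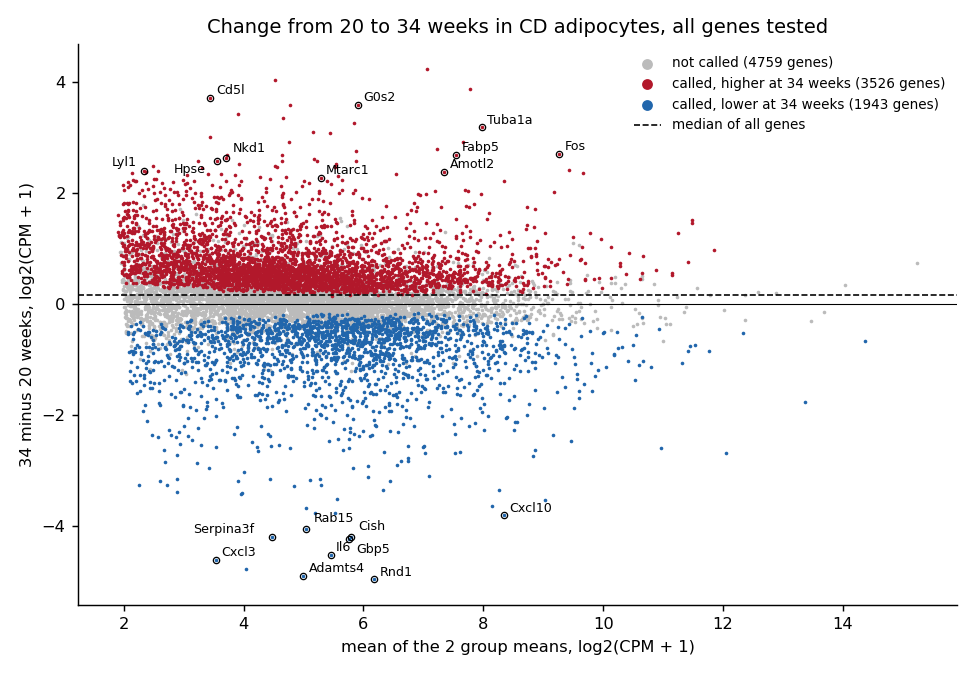
Each point is a gene tested, with its mean level on the horizontal axis and its change from 20 to 34 weeks in CD mice on the vertical axis, both on the log2(CPM + 1) scale; red points were called higher (3526), blue points called lower (1943), and the dashed line is the median gene at 0.159. The circled genes are among the largest rises and falls of genes without overlap of the mice, from Cd5l at 3.72 to Rnd1 at -4.96.

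The CD mice differed more among themselves at 34 than at 20 weeks. The SD between mice on the log2 scale averaged 0.396 at 34 and 0.271 at 20 weeks and was larger at 34 weeks in 8048 of the genes (78.7%). On the first principal component, which held 53.5% of the variance, 5 of the 20 week mice lay between -64.9 and -38.3 and 6 of the 34 week mice between 20.0 and 56.7. Mouse 1 at 20 weeks (-8.8) and mice 4 (6.5) and 6 (4.5) at 34 weeks lay between them. Depth separated the groups too, at 13091365 to 14292115 reads per mouse at 20 weeks and 9275711 to 12433584 at 34 weeks, and thinning all mice to 9275711 reads left 5414 called genes.

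The adipocyte label held in every mouse, as the 17 adipocyte markers measured summed to 69800 to 104000 CPM at 20 weeks and 47500 to 102000 at 34 weeks. Macrophage markers were mostly higher at 34 weeks. Of 19 in the data, 18 were tested, 13 rose and 1 fell, and their sum had a median of 1620 CPM (range 1010 to 4210) at 20 weeks and 5120 (1400 to 16500) at 34 weeks. The sums overlapped, with mouse 1 the highest at 20 weeks and mouse 6 the lowest at 34 weeks, and mouse 5 at 34 weeks had the highest sum of all. None of the 19 was below 1 CPM in all mice. Of 20 T and NK cell markers, 16 were below 1 CPM in every mouse, Cd3e, Cd3d, Cd3g and Cd8a among them, and the list summed to 2.54 to 38.3 CPM over both groups. Testis markers summed to 0.162 to 18.5 CPM. In bulk RNA, more macrophages and more RNA per macrophage cannot be told apart. A fit with the macrophage level of each mouse as a covariate called 2586 genes higher and 2171 lower. That level is the mean log2(CPM + 1) of the same 19 markers. The fit called 8 of the macrophage markers higher and 4 lower, but they make up the covariate, so nothing is read from these 2 counts. The counts of this fit are given beside each list described in which the number higher or lower moved by over 1.5 times.

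**Figure D2:**
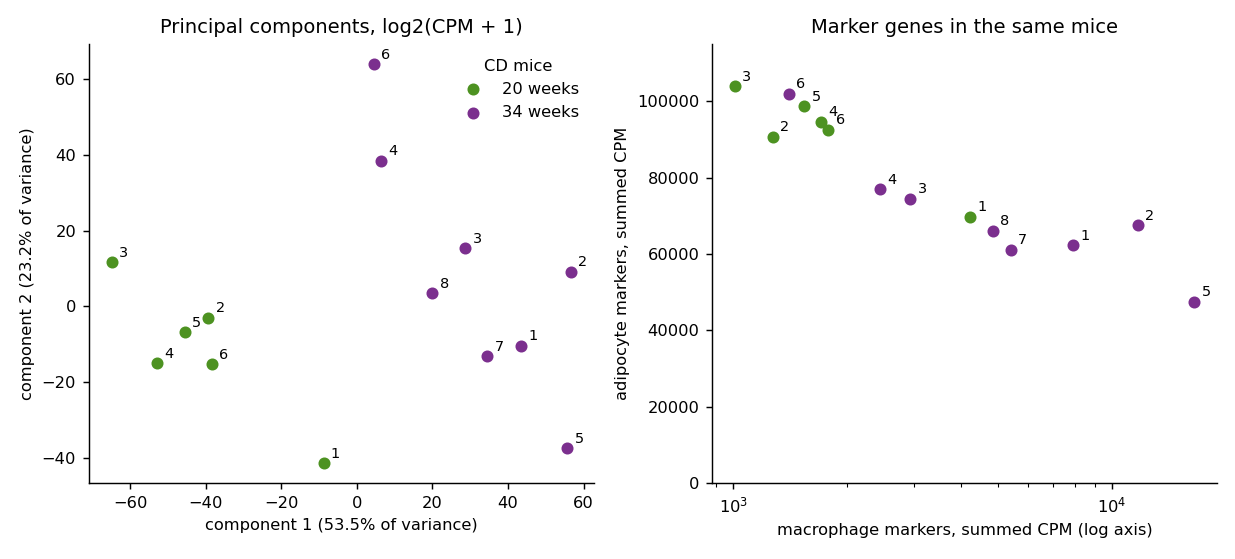
Left, the 14 CD mice on the first and second principal components (53.5% and 23.2% of the variance); right, the summed CPM of macrophage markers (log axis) against the summed CPM of adipocyte markers in the same mice, with the mouse number beside each point. Mice 4 and 6 at 34 weeks (purple) and mouse 1 at 20 weeks (green) lie between the main groups, and macrophage markers range from 1010 to 16500 CPM.

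Genes of inflammatory signalling had the lowest median change of the lists with 15 or more genes tested. Of 33 cytokine and inflammasome genes tested, 18 fell and 5 rose, and in 13 of those that fell every 34 week mouse was below every 20 week mouse. Over all genes 19.0% fell, 34.5% rose and 8.04% were lower without overlap. List counts here and below stand beside these shares where no alternative setting is named. Those of an alternative stand beside its own counts over all genes. These were 2413 higher and 2617 lower under TMM scaling and 2586 and 2171 with the macrophage covariate. With the length trend removed they were 2497 and 2375. The median member of the cytokine list changed by -1.06, against 0.159 over all genes. Macrophage markers rose in the same mice, and with their level as a covariate 25 members fell and 0 rose, with 18 falling under TMM scaling and 18 with the length trend removed. The summed level of the list had medians of 3574 CPM in CD mice at 8 weeks of diet, 5313 at 20 and 2287 at 34 weeks. In limma without that covariate the 5 that rose included Il15, Tgfb1 and the inflammasome adaptor Pycard.

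Among ligands, Il6 (Entrez 16193, chromosome 5, 30013114 to 30019975 on GRCm38), which encodes interleukin 6, stood at 76.2, 228 and 484 CPM at 20 weeks. At 34 weeks it stood at 2.20, 7.23 and 37.4 CPM, which is -4.52 ± 0.50 on the log2 scale (adjusted p = 1.6e-05). The groups were apart, with the highest 34 week mouse below the lowest 20 week mouse. Csf1, the growth factor that macrophages depend on, was at 262, 417 and 540 CPM at 20 weeks and 21.6, 42.8 and 92.0 CPM at 34 weeks, without overlap (-3.10 ± 0.28, adjusted p = 3.0e-06). The fall in Csf1 and the rise of macrophage markers thus occurred in the same RNA samples.

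Cytokine receptors fell as well, and so did Jak2 and Stat5a. Il1r1, the signalling receptor for interleukin 1, went from 169, 266 and 374 CPM to 16.2, 27.8 and 48.2 CPM (-3.18 ± 0.26, adjusted p = 1.4e-06). Osmr, the oncostatin M receptor chain, went from 223, 242 and 359 CPM to 23.6, 46.6 and 64.5 CPM (-2.55 ± 0.22, adjusted p = 2.6e-06). Neither gene overlapped between the groups. Jak2 (Entrez 16452, chromosome 19, 29251803 to 29313095), the kinase used by the growth hormone receptor, was at 202, 251 and 389 CPM at 20 weeks and 27.1, 38.3 and 42.0 CPM at 34 weeks. Its change of -2.83 ± 0.14 (adjusted p = 3.6e-08) had the smallest adjusted p of all falls named here, and the 34 week mice formed a narrow band far below the 20 week mice. Stat5a, the factor that growth hormone signalling activates, fell by 1.85 on the log2 scale (standard error 0.14, adjusted p = 7.1e-07), from a median of 239 to 70.4 CPM, also without overlap.

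Feedback inhibitors of more than a single signalling pathway fell in different measure. Cish, a SOCS family member that is a STAT5 target, stood at 152, 256 and 292 CPM at 20 weeks and 3.81, 13.5 and 24 CPM at 34 weeks (-4.20 ± 0.33, adjusted p = 7.2e-07). Socs3, the feedback inhibitor of interleukin 6 receptors, stood at 460, 654 and 808 CPM and then at 223, 307 and 497 CPM (-1.04 ± 0.18, adjusted p = 0.00045). The ranges of Cish were far apart whereas those of Socs3 overlapped slightly. Nfkbia, the inhibitor of NF-kappaB that NF-kappaB itself induces, fell by 1.31 on the log2 scale (standard error 0.33, adjusted p = 0.0042), and its ranges overlapped too, at 744 to 1340 CPM and 148 to 1060 CPM.

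The STAT site is a palindrome of TTC and GAA with a spacer of 3 bases, written TTCNNNGAA, and it reads the same on both strands. In the RefSeq promoters of GRCm38.p6, taken from 250 bases before to 50 after each start, it was in 8.30% of all 32851 promoters, in 5.59% of those of genes called higher, in 8.76% of those of genes called lower and in 6.59% of those of genes not called. The promoters of Cish (chr9:107296409-107296708, plus strand), Gbp5 (chr3:142496684-142496983, plus strand) and Socs3 (chr11:117969317-117969616, minus strand) hold it and are shown because these genes fell with Jak2 and Stat5a. The sites are in capitals.
Cish: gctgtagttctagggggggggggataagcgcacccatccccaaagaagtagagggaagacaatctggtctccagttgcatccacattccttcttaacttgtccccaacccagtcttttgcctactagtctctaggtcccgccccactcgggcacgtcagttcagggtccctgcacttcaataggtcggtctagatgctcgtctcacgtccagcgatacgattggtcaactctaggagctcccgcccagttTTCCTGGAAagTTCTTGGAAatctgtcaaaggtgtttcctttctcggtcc
Gbp5: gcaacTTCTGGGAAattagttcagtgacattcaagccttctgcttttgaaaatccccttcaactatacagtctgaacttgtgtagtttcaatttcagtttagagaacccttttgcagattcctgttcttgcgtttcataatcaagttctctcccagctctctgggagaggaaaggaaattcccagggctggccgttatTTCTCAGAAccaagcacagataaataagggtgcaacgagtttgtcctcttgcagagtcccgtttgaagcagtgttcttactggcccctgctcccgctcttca
Socs3: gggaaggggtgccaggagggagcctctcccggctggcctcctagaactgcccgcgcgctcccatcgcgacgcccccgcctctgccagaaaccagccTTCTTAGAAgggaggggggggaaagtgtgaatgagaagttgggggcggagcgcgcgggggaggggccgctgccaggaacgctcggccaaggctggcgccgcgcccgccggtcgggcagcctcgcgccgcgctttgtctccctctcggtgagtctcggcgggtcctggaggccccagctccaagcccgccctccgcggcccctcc
Cish has a pair of sites, 0 and 11 bases after the start, Gbp5 has sites 245 and 52 bases before it, and Socs3 has 1 site 154 bases before it. The start used for Socs3 and its whole window lie inside the annotated span of the gene (117966079 to 117970336), so the site is not upstream of that span. The windows of Jak2, Stat5a (2 promoters), Il6, Osmr and Cxcl10 hold no match to these letters. A match describes the sequence and does not show binding.

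Interferon-stimulated genes fell in number as well. Of 46 tested, 22 fell and 5 rose, with 12 falls lacking any overlap and a median of -0.71. Over all genes 19.0% fell, 34.5% rose and 8.04% were lower without overlap. With the macrophage covariate 24 fell and 1 rose. Their summed level had medians of 5304, 8089 and 4207 CPM at 8, 20 and 34 weeks. Gbp5, a guanylate-binding protein of the interferon response, went from 153, 208 and 546 CPM to 3.47, 11.7 and 35.9 CPM (-4.23 ± 0.42, adjusted p = 6.8e-06). Irf1, a factor that drives such genes, went from 676, 799 and 1110 CPM to 74.2, 283 and 379 CPM (-1.80 ± 0.30, adjusted p = 0.00028). Neither overlapped. Oasl1, another gene of the same list, fell by 3.15 on the log2 scale (standard error 0.45, adjusted p = 9.7e-05). The list was not uniform, since Isg15 and Irf7 were among 19 members that did not pass the test, and Bst2 and Oas1a rose.

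Of 23 chemokines and receptors tested, 7 fell and 3 rose, and with the macrophage covariate 13 fell and 1 rose. Their summed level had medians of 1831, 5085 and 2341 CPM at 8, 20 and 34 weeks, so that it was highest at 20 weeks. Cxcl10, which attracts T cells and is induced by interferon gamma (Entrez 15945, chromosome 5, 92346638 to 92348889), was at 807, 1210 and 2100 CPM at 20 weeks and 24.3, 85.6 and 174 CPM at 34 weeks (-3.80 ± 0.36, adjusted p = 5.0e-06). Cxcl3, a neutrophil attractant, was at 34.4, 50.2 and 128 CPM and then at 0.0846, 1.47 and 3.59 CPM (-4.61 ± 0.34, adjusted p = 5.7e-07). Both were separated without overlap, although the lowest Cxcl3 value is that of a single read. Cxcl1 (-1.87 ± 0.33, adjusted p = 0.00045), Cxcl9 (-2.66 ± 0.44, adjusted p = 0.00028) and the monocyte attractant Ccl2 (-2.06 ± 0.45, adjusted p = 0.0017) fell in the same way, with Ccl2 at 440, 695 and 1220 CPM and then 27.4, 205 and 330 CPM. Acute phase proteins were mixed, with 6 of 15 lower and 3 higher. Saa1, a serum amyloid A protein whose reads may be shared with its near copy Saa2, stood at 7.42, 28.8 and 64.1 CPM and at 0.325, 3.20 and 8.04 CPM (-2.86 ± 0.46, adjusted p = 0.00023), and its groups overlapped. Cp, ceruloplasmin, a copper carrier, fell without overlap from 404, 516 and 646 CPM to 137, 184 and 286 CPM (-1.42 ± 0.18, adjusted p = 3.4e-05).

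Other large falls were of genes with varied roles. Rnd1, a small GTPase that loosens the actin cytoskeleton, fell most of all genes without overlap, from 247, 397 and 785 CPM to 1.35, 15 and 24.9 CPM (-4.96 ± 0.47, adjusted p = 4.4e-06). Adamts4, a protease that cuts proteoglycans, followed with 101, 184 and 326 CPM and then 0.423, 5.63 and 20.7 CPM (-4.90 ± 0.48, adjusted p = 5.6e-06). Rab15, a GTPase of endosome recycling, was at 67.7, 142 and 210 CPM and then 4.42, 7.19 and 13.5 CPM (-4.06 ± 0.26, adjusted p = 3.3e-07). In these genes the 20 week mice ranged between 67.7 and 785 CPM, and no 34 week mouse exceeded 24.9. Serpina3f, a serine protease inhibitor of the acute phase family, fell by 4.20 on the log2 scale (standard error 0.39, adjusted p = 3.7e-06). Among the smallest adjusted p values were those of Rhou, a GTPase of cell shape (-2.59 ± 0.16, adjusted p = 2.0e-07), Dusp16, a phosphatase of stress kinases (-2.38 ± 0.15, adjusted p = 3.7e-07), and Ibtk (-1.82 ± 0.10, adjusted p = 4.1e-08), all without overlap.

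**Figure D3:**
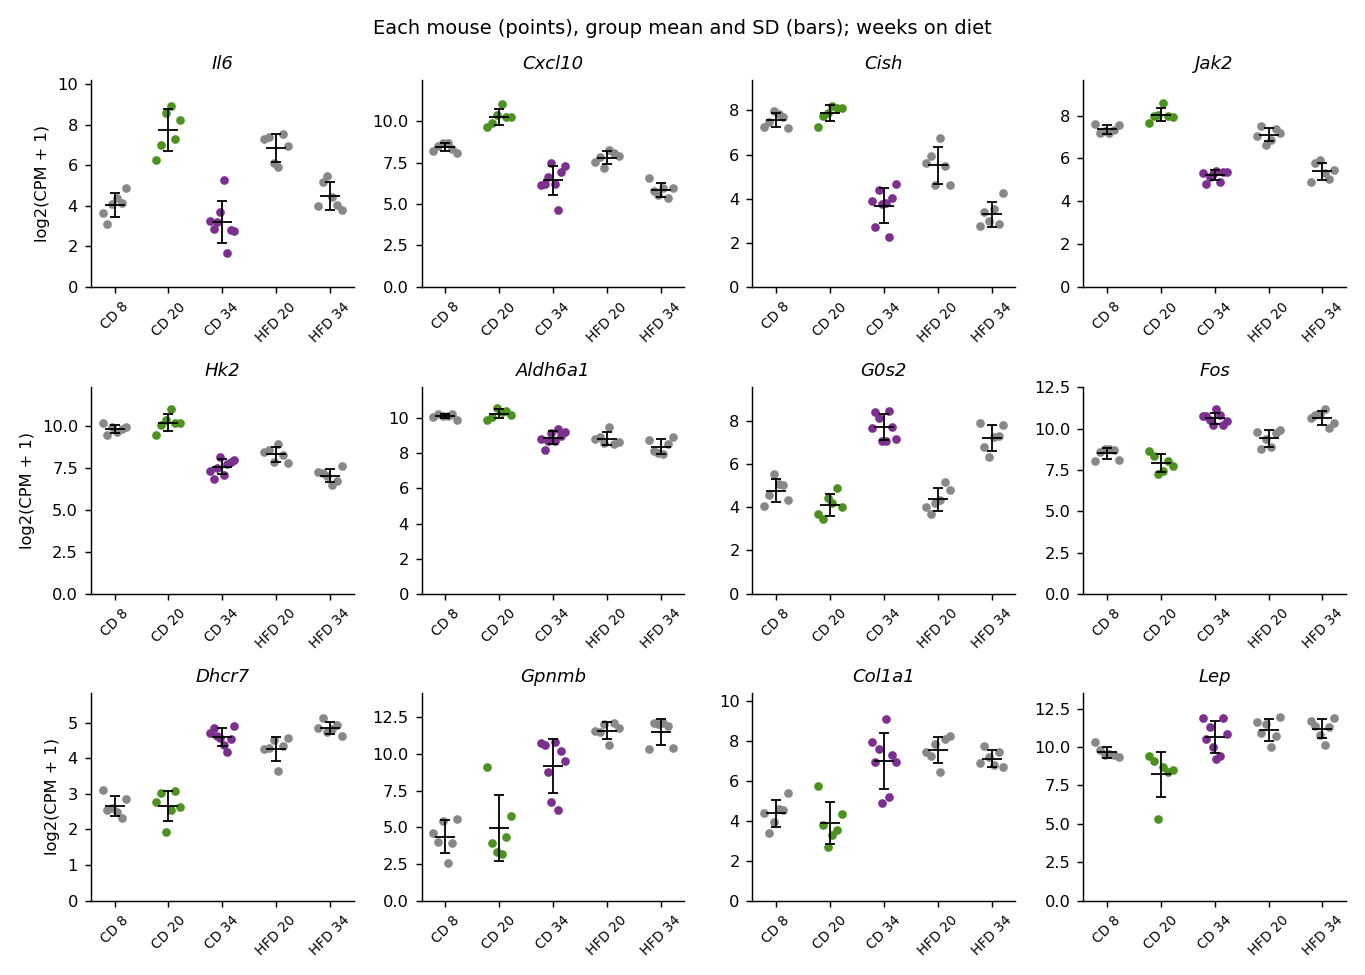
Levels of 12 genes in each mouse on the log2(CPM + 1) scale, with CD mice at 8, 20 (green) and 34 weeks (purple) and HFD mice at 20 and 34 weeks (grey, as are the CD mice at 8 weeks); the bars are the group mean and SD. The CD mice at 20 and 34 weeks do not overlap for Il6, Cxcl10, Cish, Jak2, Hk2, Aldh6a1, G0s2, Fos and Dhcr7, and they overlap for Gpnmb, Col1a1 and Lep.

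Immediate early genes, which respond to stimuli within minutes, did not move as a block. Of 31 tested, 10 fell and 9 rose, with a median of -0.04, and with the macrophage covariate 15 fell and 5 rose. Fos (Entrez 14281, chromosome 12, 85473890 to 85477274) stood at 149, 242 and 399 CPM at 20 weeks and 1190, 1600 and 2370 CPM at 34 weeks (2.71 ± 0.22, adjusted p = 1.3e-06). Its relatives went the other way, with Fosb at 2170, 2340 and 2570 CPM and then 388, 1020 and 1590 CPM (-1.37 ± 0.24, adjusted p = 0.00044) and Fosl1 lower by -3.18 ± 0.53 (adjusted p = 0.00028). All 3 were free of overlap. Myc, the growth factor response gene, fell from 194, 295 and 332 CPM to 33.6, 115 and 160 CPM (-1.58 ± 0.32, adjusted p = 0.0010), and Ier5 fell by 2.13 on the log2 scale (standard error 0.40, adjusted p = 0.00068). Dusp2, a phosphatase of immune cells, rose from 1.18, 2.55 and 9.52 CPM to 3.22, 17.8 and 89.1 CPM (2.16 ± 0.64, adjusted p = 0.011), beside the macrophage markers, and its call was lost with their level as a covariate (0.55, adjusted p = 0.30). Without mouse 6 at 34 weeks 14 members rose in place of 9.

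Genes of insulin signalling and glucose uptake were lower more often than higher. Of 23 tested, 13 fell and 5 rose, with a median of -0.45. Hk2 (Entrez 15277, chromosome 6, 82725025 to 82774454), the hexokinase that insulin induces in fat, was at 688, 1140 and 2010 CPM at 20 weeks and 113, 195 and 276 CPM at 34 weeks (-2.63 ± 0.24, adjusted p = 3.0e-06). Slc2a1, the glucose carrier GLUT1, was at 96.4, 124 and 147 CPM and then 14.7, 22.7 and 35.7 CPM (-2.43 ± 0.17, adjusted p = 3.8e-07). Both were without overlap. Slc2a4, the insulin-responsive carrier GLUT4, was among the 5 members that did not pass the test.

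The docking proteins of the insulin receptor split by member. Irs2 fell from 242, 533 and 600 CPM to 60.8, 118 and 291 CPM (-1.87 ± 0.34, adjusted p = 0.00048) and overlapped in that mouse 1 at 20 weeks was below mice 7 and 8 at 34 weeks. Irs3, a form found in rodents, rose from 8.96, 13 and 19.8 CPM to 40.7, 51.0 and 77.7 CPM (1.90 ± 0.19, adjusted p = 5.7e-06), and Irs1 rose too. Pik3r1, a regulatory subunit of phosphoinositide 3-kinase, fell by 0.81 on the log2 scale (standard error 0.15, adjusted p = 0.00064), and Foxo1, the factor that insulin keeps out of the nucleus, rose from a median of 54.7 to 98.6 CPM (0.92 ± 0.15, adjusted p = 0.0002).

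Hypoxia and angiogenesis genes fell in 11 of 25 and rose in 4. Hif1a, the oxygen-regulated subunit of hypoxia-inducible factor, was at 272, 384 and 534 CPM at 20 weeks and 55.8, 84.9 and 124 CPM at 34 weeks (-2.16 ± 0.20, adjusted p = 3.3e-06). Fgf2, an angiogenic growth factor, was at 38.3, 50.7 and 57.5 CPM and then at 4.64, 8.39 and 17.3 CPM (-2.37 ± 0.21, adjusted p = 3.0e-06). Neither overlapped, whereas Vegfa, Epas1 and Kdr were among 10 members that did not pass the test. Glycolytic enzymes went the other way, with 11 of 20 higher and 3 lower, among them Hk2. Under TMM scaling 6 glycolytic enzymes were higher.

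The breakdown of branched-chain amino acids, a major route of amino acid use in fat cells, fell along most of its steps. Of 26 genes tested, 15 fell and 1 rose, with a median of -0.40, and 17 fell under TMM scaling. Those that fell included the transaminase Bcat2 and the dehydrogenase subunits Bckdha, Bckdhb and Dbt. Aldh6a1 (Entrez 104776, chromosome 12, 84430717 to 84451024), which acts late in valine breakdown, was at 938, 1240 and 1550 CPM at 20 weeks and 292, 478 and 657 CPM at 34 weeks (-1.35 ± 0.17, adjusted p = 4.1e-05). Acadsb, the dehydrogenase of the isoleucine branch, fell from 298, 380 and 417 CPM to 156, 194 and 286 CPM (-0.90 ± 0.14, adjusted p = 0.00013), and Ivd, that of the leucine branch, by 0.81 on the log2 scale (standard error 0.14, adjusted p = 0.00048). The 1 rise was Bcat1, the cytosolic transaminase, at 3.06, 4.87 and 11.4 CPM and then 7.96, 12.6 and 28.1 CPM (1.19 ± 0.29, adjusted p = 0.0038). The summed adipocyte markers had medians of 93600 and 66800 CPM in the same mice. Cfd alone had medians of 19500 and 5370 CPM in that sum, and of the 17 adipocyte markers 5 fell and 3 rose. Macrophage markers rose, and with their level as a covariate 5 genes of branched-chain breakdown fell. Bcat1 was not called in that fit.

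Clock genes are read here in mice of separate time points, for which the methods state the same fasting hours. Of 20 tested, 11 fell and 2 rose, with a median of -0.54. Per2, a core repressor, was at 63.5, 101 and 128 CPM and then 9.81, 31.6 and 50.1 CPM (-1.69 ± 0.29, adjusted p = 0.00038), and Nfil3, which opposes the output factors, at 192, 267 and 292 CPM and then 43.3, 88.3 and 146 CPM (-1.45 ± 0.22, adjusted p = 0.00016). Both were free of overlap. Per1 rose, and Arntl, Clock, Dbp and Nr1d1 were among 7 members that did not pass the test. Glucocorticoid targets were likewise split, with 8 of 17 lower and 2 higher. Fkbp5, a chaperone of the receptor, fell from 69.9, 175 and 292 CPM to 38.3, 66.3 and 134 CPM (-1.32 ± 0.34, adjusted p = 0.0051), while Tsc22d3, another receptor target, rose from 49.3, 71.4 and 93.2 CPM to 124, 159 and 252 CPM (1.22 ± 0.18, adjusted p = 0.00011).

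Genes of lipid storage and release moved in both directions. G0s2 (Entrez 14373, chromosome 1, 193272160 to 193273188), an inhibitor of the main triglyceride lipase of fat, was at 9.98, 16.2 and 28.3 CPM at 20 weeks and 131, 206 and 350 CPM at 34 weeks (3.60 ± 0.28, adjusted p = 7.1e-07). Pnpla2, which encodes that lipase, fell from 2970, 3800 and 4320 CPM to 1380, 2290 and 3330 CPM (-0.76 ± 0.18, adjusted p = 0.0035), and its ranges overlapped. The inhibitor rose without overlap between the groups, and its target fell with overlap. With the macrophage level as a covariate the call of Pnpla2 was lost (-0.35, adjusted p = 0.065). Lipe, hormone-sensitive lipase, had medians of 2330 and 2450 CPM and was not called (0.13 ± 0.17, adjusted p = 0.54), although it was with that covariate (0.52, adjusted p = 0.0072).

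Of the whole lipolysis list 4 of 21 rose and 4 fell, against 34.5% and 19.0% of all genes, and with the macrophage covariate 7 rose and 3 fell. Pde3b, the phosphodiesterase by which insulin restrains lipolysis, fell from 435, 755 and 864 CPM to 232, 373 and 504 CPM (-0.96 ± 0.20, adjusted p = 0.0012), and Hilpda, another lipase inhibitor, from 222, 277 and 376 CPM to 31.3, 108 and 312 CPM (-1.47 ± 0.37, adjusted p = 0.0046). In de novo lipogenesis 5 of 20 rose and 3 fell, which are shares under those of all genes. Scd2, a stearoyl-CoA desaturase, went from 15.2, 59.9 and 167 CPM to 144, 905 and 1740 CPM (3.87 ± 0.58, adjusted p = 0.00013), while the abundant Scd1 was at 18000, 30400 and 42500 CPM and 22700, 49500 and 81800 CPM without passing the test (0.75 ± 0.32, adjusted p = 0.062). Scd1 was called higher under 6 alternatives, at 0.67 (adjusted p = 0.041) in DESeq2 and up to 1.31 (adjusted p = 0.0035) with the macrophage covariate. Fasn, fatty acid synthase, ranged from 975 to 18000 CPM at 34 weeks and from 2620 to 10100 at 20 weeks (0.17 ± 0.61, adjusted p = 0.83), and was called with the macrophage covariate alone (1.43, adjusted p = 0.044). Acacb and Gpam, an acetyl-CoA carboxylase and the acyltransferase that starts triglyceride synthesis, fell by 1.55 (standard error 0.37, adjusted p = 0.0035) and changed by -1.48 (standard error 0.28, adjusted p = 0.00076) on the log2 scale. With the macrophage level as a covariate 13 lipogenesis genes rose and 0 fell, Acacb not being called there.

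Cholesterol synthesis genes rose, with 14 of 25 higher, 1 lower and a median of 0.76. Dhcr7 (Entrez 13360, chromosome 7, 143823167 to 143848410), which makes cholesterol in the last step, was at 2.80, 5.51 and 7.39 CPM at 20 weeks and 17.1, 23.4 and 29.0 CPM at 34 weeks (1.94 ± 0.17, adjusted p = 2.6e-06). Fdps, farnesyl diphosphate synthase, was at 13.5, 17.1 and 25.9 CPM and then 31.4, 86.8 and 155 CPM (2.03 ± 0.28, adjusted p = 7.7e-05), and Mvd, of the mevalonate steps, at 2.94, 4.57 and 5.29 CPM and then 9.33, 16.9 and 27.3 CPM (1.74 ± 0.19, adjusted p = 1.7e-05). These 3 were without overlap. Insig1, a sterol-sensitive brake on the pathway, rose by 1.31 ± 0.24 (adjusted p = 0.00051) and Lss, lanosterol synthase, by 1.39 ± 0.25 (adjusted p = 0.00053). Of the other members 10 did not pass the test. TMM scaling left 13 rises and the macrophage covariate 15.

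Adipocyte transcription factors rose and fell in like number, with 8 of 21 higher and 6 lower, and 7 higher and 2 lower with the macrophage covariate. Over all genes 34.5% were higher and 19.0% lower, so the share of rises was near that of all genes. Pparg, the master regulator of fat cells, was at 127, 174 and 231 CPM and then 240, 270 and 478 CPM (0.82 ± 0.18, adjusted p = 0.0021), and Klf15 at 19.8, 26.8 and 34.0 CPM and then 48.4, 67.1 and 178 CPM (1.53 ± 0.27, adjusted p = 0.0004), both without overlap. Cebpa rose by 0.71 ± 0.19 (adjusted p = 0.0065), a call that was lost with the length trend removed (0.42, adjusted p = 0.094). Of the 17 adipocyte markers 3 rose and 5 fell, with a median of -0.28, in mice in which macrophage markers rose. With the macrophage level as a covariate 5 rose and 2 fell and the median was 0.20, so the direction of the list turned. Adipoq, adiponectin, was at 5050, 5880 and 6650 CPM and 3440, 5010 and 6400 CPM and did not pass the test (-0.28 ± 0.15, adjusted p = 0.13). Adipoq was called lower under 4 alternatives, among them the length trend removed (-0.69, adjusted p = 0.0027) and DESeq2 (-0.39, adjusted p = 0.027). Fabp4 did not pass the test either (0.34 ± 0.20, adjusted p = 0.17). Plin4, a droplet coat protein, fell from 4030, 4480 and 5990 CPM to 1500, 2840 and 3900 CPM (-0.84 ± 0.20, adjusted p = 0.0027).

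Secreted factors of fat cells moved in both directions, with 3 of 23 higher and 8 lower. Lep, leptin, was at 38.2, 380 and 674 CPM at 20 weeks and 591, 1630 and 3830 CPM at 34 weeks (2.41 ± 0.61, adjusted p = 0.0045), with overlap. Cfd, adipsin, was at 13100, 19500 and 27600 CPM and then 2680, 5370 and 16900 CPM (-1.76 ± 0.37, adjusted p = 0.0014). The lowest Lep value came from mouse 3 at 20 weeks, without which the change was 1.83, and with the macrophage level as a covariate the call was lost (1.79, adjusted p = 0.055). Sfrp5, a secreted Wnt inhibitor that marks expanding fat, rose from 4.27, 20.7 and 60.9 CPM to 44.5, 198 and 506 CPM (3.26 ± 0.67, adjusted p = 0.0012), and Npr3, the clearance receptor for natriuretic peptides, from 65.1, 334 and 546 CPM to 703, 1230 and 1720 CPM (2.01 ± 0.40, adjusted p = 0.00098). Npr3 was without overlap, and Lep, Cfd and Sfrp5 were not. Cyp2e1, a cytochrome P450 that is abundant in mouse fat, fell from 4690, 11400 and 18300 CPM to 761, 1420 and 6980 CPM (-2.69 ± 0.48, adjusted p = 0.00048). Tph2, a tryptophan hydroxylase, rose from 0.585, 1.30 and 5.25 CPM to 1.35, 11.5 and 79.3 CPM (2.26 ± 0.72, adjusted p = 0.016), with a call lost under the macrophage covariate (1.44, adjusted p = 0.17).

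The other large rises without overlap were of varied roles. Tuba1a, an alpha tubulin that has near-identical copies, rose from 13.9, 99.3 and 184 CPM to 205, 1030 and 1410 CPM (3.19 ± 0.56, adjusted p = 0.00044). Fabp5, a fatty acid binding protein shared by fat cells and macrophages, rose from 47.3, 77.0 and 111 CPM to 356, 481 and 718 CPM (2.69 ± 0.21, adjusted p = 7.1e-07). Amotl2, a Hippo pathway gene, rose from 28.0, 79.5 and 139 CPM to 190, 346 and 594 CPM (2.38 ± 0.32, adjusted p = 5.9e-05). All 3 kept their direction and call with the macrophage covariate, at 2.77, 2.33 and 2.35. Nkd1, which restrains Wnt signalling, rose by 2.64 ± 0.35 (adjusted p = 5.5e-05) and Mtarc1, a mitochondrial reductase, by 2.28 ± 0.31 (adjusted p = 6.2e-05). Hpse, heparanase, rose from 1.32, 4.09 and 5.95 CPM to 7.36, 32.5 and 82.8 CPM (2.59 ± 0.49, adjusted p = 0.00071), and Lyl1, a transcription factor of blood cells, from 0.306, 1.36 and 2.72 CPM to 4.74, 8.83 and 30.4 CPM (2.40 ± 0.41, adjusted p = 0.00037). Their changes were 1.25 and 1.40 with the macrophage covariate. Klhl42, an adaptor of a ubiquitin ligase, rose by 1.53 ± 0.13 (adjusted p = 2.5e-06).

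Macrophage markers were mostly called higher at 34 weeks, but those of resident macrophages were not. Lipid-associated macrophage markers rose in 8 of 11, in 4 with the macrophage covariate, with a median of 2.25. Of 13 in the data these 11 passed the filter on mean level, Cd5l through the 34 week mice. The count and median are therefore not read on their own. The sum over all 13 was 470, 573 and 2680 CPM at 20 weeks and 731, 2770 and 7740 CPM at 34 weeks. Gpnmb (Entrez 93695, chromosome 6, 49036518 to 49058182), a glycoprotein of lipid-laden macrophages, was at 8.17, 16.7 and 540 CPM and then 71.1, 933 and 1780 CPM (4.23 ± 0.98, adjusted p = 0.0027). Trem2, their lipid receptor, was at 2.13, 4.87 and 56.7 CPM and then 21.5, 87.6 and 433 CPM (3.58 ± 0.73, adjusted p = 0.0011). In each of these genes the highest 20 week mouse was inside the range of the 34 week mice. Cd5l, a secreted protein of tissue macrophages, did not overlap, at 0.441, 1.37 and 6.02 CPM and 9.58, 27.1 and 368 CPM (3.72 ± 0.69, adjusted p = 0.00057). Spp1, osteopontin, went from 0.515, 3.05 and 93.3 CPM to 14.6, 76.3 and 1300 CPM (4.04 ± 0.97, adjusted p = 0.0033). Lgals3, galectin 3, rose by 1.72 ± 0.49 (adjusted p = 0.0095), and its call was lost with the macrophage covariate (0.35, adjusted p = 0.21). With the mouse of highest macrophage sum left out of each group 10 members rose.

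Of 11 resident macrophage markers tested 0 were called higher and 2 lower, a share of falls near the 19.0% over all genes. With the macrophage covariate 5 were lower. The median member changed by 0.28, against 0.159 over all genes, so the list as a whole is not read as falling. Its sum had medians of 955 CPM at 20 weeks and 770 CPM at 34 weeks. Cd163, a haemoglobin scavenger receptor, was at 40.0, 118 and 181 CPM and then 7.48, 43.2 and 88.4 CPM (-1.58 ± 0.47, adjusted p = 0.012), and Lyve1, a hyaluronan receptor, at 11.2, 37.2 and 52.3 CPM and then 1.83, 10.3 and 45.5 CPM (-1.63 ± 0.57, adjusted p = 0.027). The call of Lyve1 was lost without mouse 1, 4 or 5 at 20 weeks (adjusted p = 0.054, 0.055 and 0.059) and in edgeR's quasi-likelihood test (adjusted p = 0.057). General macrophage genes such as Lyz2 (130, 328 and 1090 CPM, then 499, 1980 and 5610 CPM, a change of 2.36 ± 0.55, adjusted p = 0.0026) and Ctss, a lysosomal cysteine protease (2.93 ± 0.68, adjusted p = 0.0026), rose. So did Tyrobp, an adaptor of myeloid receptors (2.58 ± 0.58, adjusted p = 0.0021), and Mpeg1, a pore-forming protein (2.80 ± 0.68, adjusted p = 0.0037).

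Lysosome genes rose in 40 of 54 and fell in 4, with a median of 0.76, beside the macrophage markers, which also hold many of them. Ctsd, cathepsin D, was at 1340, 1690 and 2230 CPM and then 3010, 4590 and 7670 CPM (1.51 ± 0.22, adjusted p = 0.00011), without overlap. Psap, which activates lipid-degrading enzymes, was at 1370, 1630 and 2940 CPM and then 2150, 4810 and 9560 CPM (1.46 ± 0.35, adjusted p = 0.0031). With the macrophage level as a covariate 12 members rose and 4 fell, Ctsd rising by 0.98 (adjusted p = 0.0004) and Ctsb no longer called (0.30, adjusted p = 0.076).

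Collagen genes rose in 12 of 18 and fell in 0, with a median of 1.00. Of 44 in the data only these 18 passed the filter on mean level. The sum over all 44 had medians of 3315 CPM at 20 weeks and 6738 CPM at 34 weeks, with ranges of 1609 to 5762 and 4428 to 8801. Col1a1 (Entrez 12842, chromosome 11, 94936224 to 94953042), the main fibrillar chain, was at 5.52, 11.7 and 52.3 CPM at 20 weeks and 28.6, 139 and 555 CPM at 34 weeks (3.09 ± 0.62, adjusted p = 0.00099). Col6a2, a chain of collagen VI, was at 32.3, 108 and 243 CPM and then 197, 481 and 652 CPM (2.05 ± 0.40, adjusted p = 0.00079). Both overlapped, as did every collagen that rose. Serpinh1, the collagen chaperone, rose without overlap from 101, 159 and 211 CPM to 224, 499 and 601 CPM (1.53 ± 0.22, adjusted p = 8.6e-05), and so did Sparc, a collagen-binding matrix protein, from 930, 1740 and 2080 CPM to 2230, 3750 and 6430 CPM (1.27 ± 0.27, adjusted p = 0.0016). The basement membrane chain Col4a1, with medians of 1160 and 1350 CPM, did not pass the test (0.30 ± 0.26, adjusted p = 0.33). Thbs1, thrombospondin 1, went against the collagens, from 3840, 4850 and 6820 CPM to 95.9, 1230 and 2260 CPM (-2.59 ± 0.56, adjusted p = 0.0018). Summed progenitor and fibroblast markers had medians of 12800 CPM at 20 weeks and 11500 CPM at 34 weeks, with 4 of 12 higher and 0 lower. That share of rises is near the 34.5% over all genes. With the macrophage level as a covariate 4 collagens rose and 2 fell, as did the same numbers of the progenitor and fibroblast markers.

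Proliferation genes rose in 12 of 21 and fell in 1, with a median of 1.07, beside the macrophage markers. Of 38 in the list only these 21 passed the filter on mean level. Low members such as Ube2c and Mcm5 passed it through the 34 week mice, so the counts are not read as a rise of the list. The summed level of the list had medians of 961 CPM at 20 weeks and 882 CPM at 34 weeks. With the macrophage level as a covariate 6 members rose and 4 fell, with a median of 0.23. Ube2c, of the mitotic exit machinery, was at 0.382, 1.11 and 2.73 CPM and then 2.45, 6.28 and 18.2 CPM (1.82 ± 0.35, adjusted p = 0.00071), and Mcm5, of the replication helicase, rose by 1.51 ± 0.31 (adjusted p = 0.0011). Ccne1, cyclin E1, rose without overlap from 1.99, 3.04 and 5.22 CPM to 7.62, 10.6 and 14.2 CPM (1.52 ± 0.17, adjusted p = 1.7e-05), whereas Mki67 and Top2a did not pass the test. Cell cycle arrest and p53 target genes rose in 14 of 28 and fell in 1, and with that covariate rose in 11 and fell in 4. Bbc3, a p53 target that promotes cell death, was at 2.29, 4.07 and 6.72 CPM and then 7.79, 12.6 and 17.5 CPM (1.37 ± 0.22, adjusted p = 0.00022), and Bax, its effector, at 12.1, 15.6 and 22.7 CPM and then 25.2, 33.6 and 62.5 CPM (1.20 ± 0.22, adjusted p = 0.00049). Bax and Bbc3 were free of overlap, whereas Cdkn1a, the best known p53 target, did not pass the test. Gdf15, a stress hormone, rose by 1.82 ± 0.54 (adjusted p = 0.011), and its call was lost with the macrophage covariate (0.42, adjusted p = 0.31).

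The number of ribosomal protein genes that rose depended on the scaling and on the length trend. Of 76 cytosolic ones 65 rose and 1 fell, with a median of 0.48, but 23 rose under TMM scaling, 27 with the macrophage covariate and 10 with the length trend removed, their median exon length being 1805 bases. Mitochondrial ribosomal genes rose in 50 of 72, in 26 under TMM scaling and in 17 with the length trend removed. The fall among the cytosolic genes was Rpl24, at 52.5, 57.5 and 74.5 CPM and then 12.7, 28.4 and 38.8 CPM (-1.14 ± 0.21, adjusted p = 0.00057), a gene family with many processed copies among which reads may be split. Mrps6 rose by 1.18 ± 0.17 (adjusted p = 0.00011) in CPM and by 1.03 after TMM scaling, and Rpl38 by 0.84 ± 0.21 (adjusted p = 0.0046) and by 0.69. Complex I subunits rose in 10 of 37 in CPM, in 4 under TMM scaling, in 24 with the mouse numbers as a block and in 23 with the macrophage covariate. With the length trend removed 3 rose and 5 fell.

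**Figure D4:**
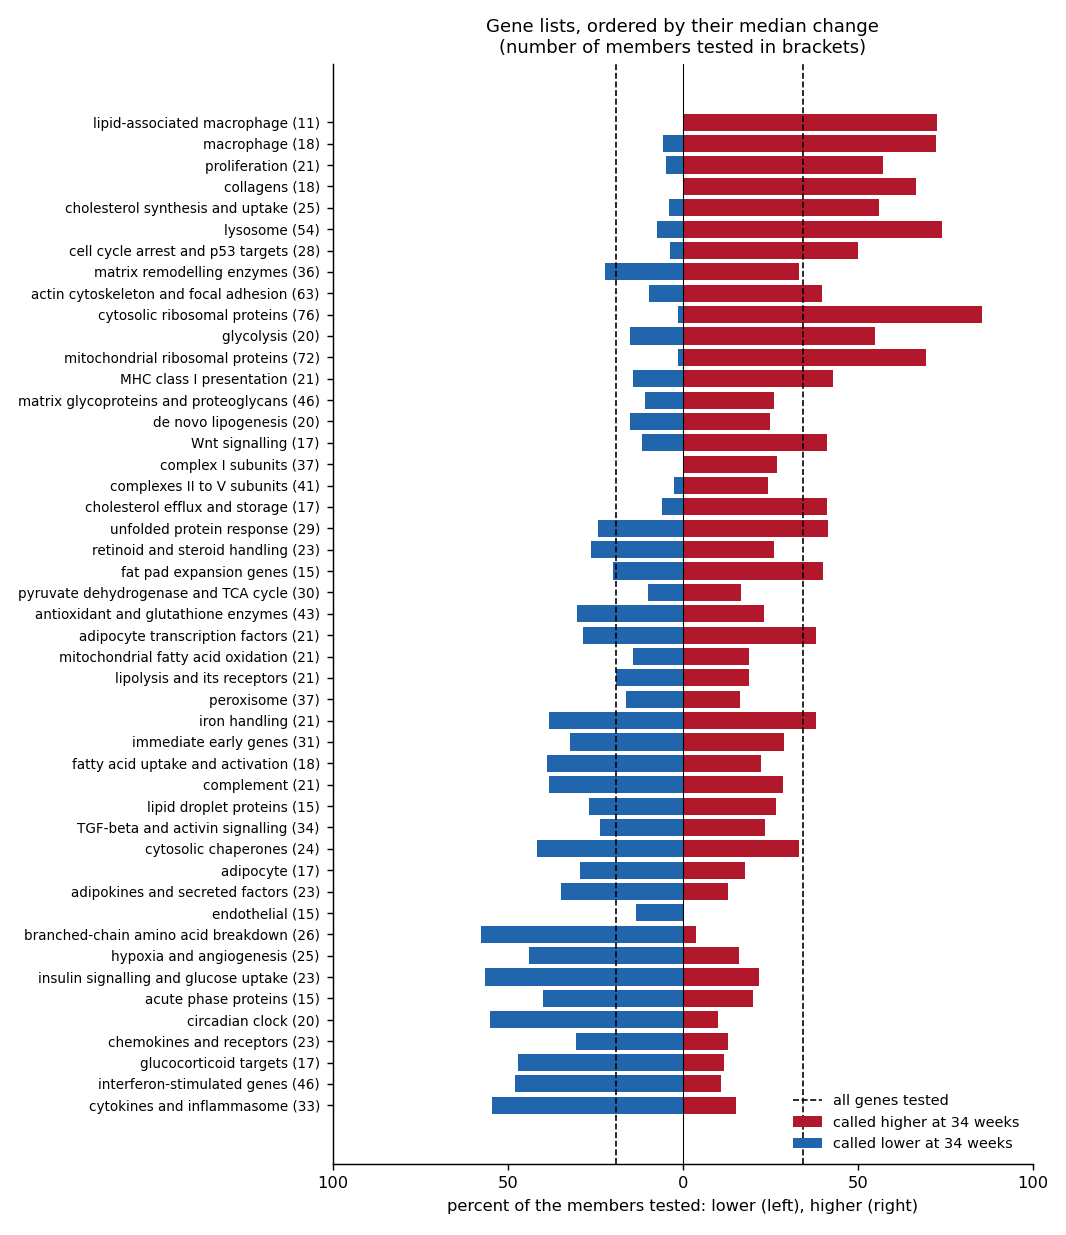
Share of each gene list that was called lower (blue, to the left) and higher (red, to the right) at 34 weeks, in percent of the members tested, with lists ordered by their median change; dashed lines mark the shares over all genes, 19.0% lower and 34.5% higher. Lipid-associated macrophage, macrophage, proliferation and collagen lists stand at the top, and cytokine and interferon-stimulated lists at the bottom.

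The HFD mice at 20 and 34 weeks are 12 other animals, so their change with time can be set beside that of the CD mice without shared libraries. In them 3064 of 10629 genes tested (28.8%) were called, 1843 higher (17.3%) and 1221 lower (11.5%), or 1195 higher and 1462 lower after TMM scaling. Of the 5382 called CD genes that were also tested in HFD mice, 4886 (90.8%) changed in the same direction there, against 79.2% of all 10045 genes tested in both. Called in both and in the same direction were 2194 genes, which are 40.8% of the CD genes and 75.5% of the 2907 HFD genes. Across the 10045 genes, which are not independent, the changes correlated with r = 0.722. Both carry the length trend and the contrast of the same time points, with any step done time point by time point.

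Most of the inflammatory genes that fell in CD mice also fell in HFD mice. Those called lower in both diets were 15 of the 18 cytokine and inflammasome genes, 15 of the 22 interferon-stimulated genes and 7 of the 7 chemokines and receptors that fell in CD mice, beside 787 of 1876 over all genes that fell in CD mice and were tested in both. The test of the difference called 3, 3 and 2 of those that fell in CD mice, Cxcl10 (-1.87 ± 0.46, adjusted p = 0.016) and Cxcl3 (-1.74 ± 0.53, adjusted p = 0.048) among them. At 20 weeks Cxcl10 and Cxcl3 had medians of 230 and 21.1 CPM in HFD mice against 1210 and 50.2 CPM in CD mice. At 34 weeks the medians were 57.8 and 2.0 CPM in HFD mice against 85.6 and 1.47 CPM in CD mice. Nfkbia did not pass the test in HFD mice (-0.44 ± 0.23, adjusted p = 0.17). In HFD mice Il6 went from 58.9, 139 and 185 CPM to 12.7, 17.9 and 43.0 CPM (-2.38 ± 0.35, adjusted p = 0.0012), and Csf1 from a median of 183 to 26.3 CPM (-2.78 ± 0.35, adjusted p = 0.00057). G0s2 rose there from 11.9, 18.2 and 35.1 CPM to 77.9, 152 and 238 CPM (2.85 ± 0.29, adjusted p = 0.00017). For Il6, Csf1 and G0s2 the difference between the diets did not pass the test (adjusted p = 0.052, 0.72 and 0.28). Of the whole lists in HFD mice, 20 of 33 cytokine genes fell and 2 rose, 16 of 46 interferon-stimulated genes fell and 2 rose, and 1 of 26 genes of branched-chain amino acid breakdown fell, beside 11.5% of all genes lower. In the same mice 3 of 25 cholesterol synthesis genes rose and 5 of 18 collagens fell while 0 rose, beside 17.3% of all genes higher. Differences between the diets over these lists as wholes were not tested.

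The test of the difference, the CD change minus the HFD change over 26 mice, called 713 of 10433 genes (6.83%), 403 with the CD change above and 310 below. This count moved with single mice, to 426 without mouse 4 and 1132 without mouse 1 of the CD mice at 20 weeks and to 428 and 453 without mice 3 and 6 of the HFD mice at 20 weeks. Of the largest positive differences, Gpnmb (4.33 ± 1.16, adjusted p = 0.026) changed by -0.10 in HFD mice, where it already stood at 1550, 3250 and 4470 CPM at 20 weeks. Scd2 (3.92 ± 0.76, adjusted p = 0.0045), Col1a1 (3.52 ± 0.75, adjusted p = 0.0075) and Sfrp5 (3.40 ± 0.80, adjusted p = 0.013) changed by -0.05, -0.43 and -0.14 in HFD mice. In HFD mice at 20 weeks Scd2, Col1a1 and Sfrp5 had medians of 330, 201 and 282 CPM, all above the medians of the CD mice of that time.

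Among the largest negative differences was that of Rab15 (-3.33 ± 0.37, adjusted p = 2.6e-05), which stood at a median of 13.5 CPM in HFD mice and 142 CPM in CD mice at 20 weeks. Cyp2f2, a cytochrome P450, Acsm3, a medium-chain acyl-CoA synthetase, and Pon1, a paraoxonase, also had differences of this size (-4.53, -3.66 and -3.66), but they were too low to be tested in HFD mice alone and entered the test of the difference through the CD mice. Their medians at 20 weeks were 1.06, 2.51 and 1.5 CPM in HFD mice against 91.6, 151 and 28.5 CPM in CD mice, so that a fall in HFD mice had little room to be seen, and nothing is read from these differences. Jak2 (-1.12 ± 0.24, adjusted p = 0.0079), Stat5a (-0.94 ± 0.23, adjusted p = 0.017) and Cish (-1.99 ± 0.51, adjusted p = 0.020) fell in both diets and more so in CD mice, from 20 week medians of 139, 86.5 and 45.6 CPM in HFD mice against 251, 239 and 256 CPM in CD mice. Within the lists, 6 of 25 cholesterol synthesis genes and 5 of 18 collagens had a CD change above that of HFD mice and 0 of either below, beside 3.86% above and 2.97% below over all genes. Of the 26 genes of branched-chain amino acid breakdown 1 was above and 2 below.

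**Figure D5:**
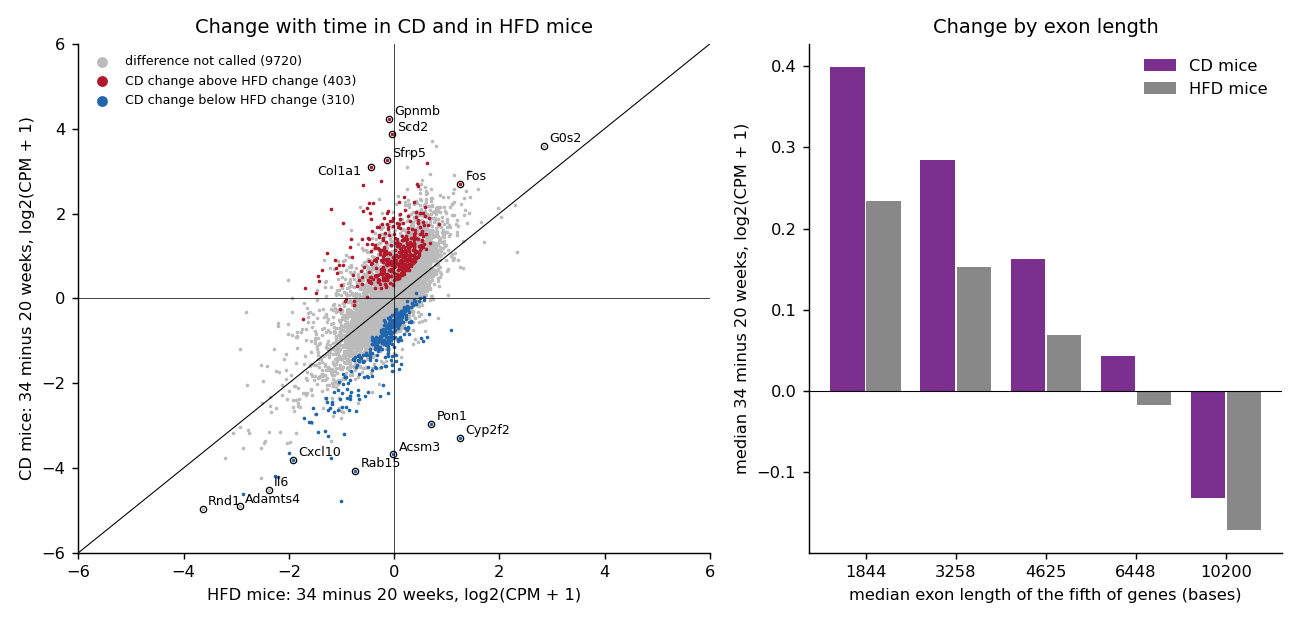
Left, the change from 20 to 34 weeks of each gene in HFD mice (horizontal axis) and CD mice (vertical axis) from the fit of all 26 mice, on the log2(CPM + 1) scale, with genes whose changes differ in red (403) or blue (310) and the line of equal change; right, the median change in 5 equal groups of genes by exon length for both diets. Gpnmb and Scd2 lie far above the line and Rab15 far below, Rnd1 and Il6 lie below it by 1.32 and 2.14 and G0s2 above it by 0.75 without a called difference, and the medians fall from 0.399 to -0.132 in CD and from 0.234 to -0.171 in HFD mice.

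The level at 8 weeks, in 6 CD mice, gives an earlier time point. The 8 week mean was nearer to the 20 than to the 34 week mean in 3162 of the 3526 genes called higher (89.7%) and in 1742 of the 1943 called lower (89.7%). Hk2 (697, 924 and 1120 CPM) and Aldh6a1 (952, 1130 and 1220 CPM) were within their 20 week range at 8 weeks, while Jak2 (143, 157 and 196 CPM) was below it and above its 34 week range, and G0s2 (15.6, 27.2 and 44.8 CPM) overlapped its 20 week range. Il6 was not, with 7.58, 16.1 and 28.1 CPM at 8 weeks, within its 34 week range, so that the 20 week mice held the high values. Cxcl3 (5.59, 8.91 and 14.7 CPM), Oasl1 (1.06, 2.84 and 6.54 CPM) and Gbp5 (21.4, 30.3 and 75.4 CPM) were also below their 20 week range at 8 weeks. So were Nfkbia (235, 300 and 424 CPM), Ccl2 (147, 289 and 394 CPM), Cxcl1 (350, 406 and 580 CPM) and Cxcl10 (272, 338 and 409 CPM). The 8 week mean was nearer to the 34 than to the 20 week mean in 4 of the 7 chemokines and receptors, 9 of the 22 interferon-stimulated genes and 6 of the 18 cytokine and inflammasome genes that fell, beside 201 of all 1943 genes that fell. Genes picked in this way, as falling and nearer to 34 weeks, have the highest of the 3 means at 20 weeks by construction. Lep stood at 654, 723 and 1280 CPM at 8 weeks, above 5 of the 6 mice at 20 weeks.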

How the data were processed

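Poly(A) RNA of perigonadal adipocytes was sequenced from stranded libraries. The deposited values are CPM, 1 column per mouse with 3 technical replicates merged, so p-values measure the spread between mice. Per the labels and the study's methods the authors aligned with STAR 2.5.2b to mm10, counted reads on the union of exons with featureCounts (Subread 1.5.1) and discarded genes without an Entrez ID. The methods name TMM factors, but each deposited column already sums to 1000000, so the CPM were used unscaled and TMM scaling was an alternative, where the design had assumed scaled values. Whole read counts were recovered for 100% of values (tolerance 0.1 read).

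Genes with a mean log2(CPM + 1) above 2 over the 14 CD mice were tested, 10228 of 29132, with limma 3.58.1 in R 4.3.3 (trend, moderated, two-sided, Benjamini-Hochberg, threshold 0.05, pseudocount 1). The difference between the diets was an interaction in limma over 26 mice. Count tests on the recovered reads, added as alternatives, called 5207 genes with edgeR 4.0.16 and 5524 with DESeq2 1.42.0. The scripts were tested on simulated data. Exon lengths came from a GENCODE union of exons, and RefSeq (GRCm38.p6) matched 27250 genes (93.5%). Tables were made with Python 3.11.15, pandas 2.3.3 and numpy 2.4.6.

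Named genes were drawn by rule from the 10 largest rises and falls and the 5 smallest p values each way among called genes without overlap, from up to 4 called and 3 most abundant members of each of 63 lists, and from the 5 largest differences each way between the diets. The text gives those the results turn on, with some added after their values were seen. The members and lists were chosen with earlier results of these data known. A few genes of these lists are not reported here. Lists were described by counts and medians, without a set test. Some genes are in several lists and are counted in each, so list counts are not independent. Cxcl10 is in the interferon-stimulated and chemokine lists, and Hk2 is in the insulin, hypoxia and glycolysis lists. Which mice ate which control chow is not given in the sources used here.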

Additional observations from a re-analysis of the deposited data

Results flagged for a closer look

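A set of mice was taken for each of 119 genes followed one by one and each CD group. These genes leave out most of those that the text names without values. In 15 of the 238 sets a single mouse lay far from the others, by the ratio of its gap to the group's range. Chance gives such a value in about 1 of 20 sets. Mouse 3 at 20 weeks was such a mouse 4 times, with Lep at 38.2 CPM, Npr3 at 65.1 CPM, Myc at 194 CPM and Hpse at 1.32 CPM below the others. Mouse 1 at 20 weeks was low in Irs2 (242 CPM) and Pde3b (435 CPM) and high in Spp1 (93.3 CPM) and Psap (2940 CPM). Mouse 6 at 34 weeks was low in Ccl2 (27.4 CPM), Rnd1 (1.35 CPM) and Ier5 (33.5 CPM). Mouse 5 at 34 weeks was low in Scd2 (144 CPM) and Lss (24.2 CPM), mouse 2 low in Per2 (9.81 CPM) and mouse 3 high in Mt2 (1110 CPM).

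In 45 of the 119 genes followed one by one, the change from 20 to 34 weeks differed between CD and HFD mice. The test was that of the difference in limma, at an adjusted p under 0.05. The values that follow are the CD change minus the HFD change on the log2(CPM + 1) scale. The CD change was above the HFD change for Gpnmb (4.33), Scd2 (3.92), Col1a1 (3.52), Sfrp5 (3.40), Col6a2 (2.64) and Tuba1a (2.57). It was so too for Fabp5 (2.26), Amotl2 (2.19), Nkd1 (2.18), Npr3 (2.14), Mtarc1 (1.90) and Serpinh1 (1.71). Smaller positive differences were those of Fdps (1.62), Bcat1 (1.49), Fos (1.45), Dhcr7 (1.35), Lss (1.34) and Scd1 (1.33). The positive differences also included Insig1 (1.28), Irs3 (1.24), Mvd (1.09), Ctsd (1.02), Bbc3 (0.99), Ccne1 (0.91) and Mrps6 (0.90). The CD change was below the HFD change for Cyp2f2 (-4.53), Acsm3 (-3.66), Pon1 (-3.66), Rab15 (-3.33) and Cish (-1.99). Of these, Cyp2f2, Acsm3 and Pon1 were too low in HFD mice to be tested there. It was also below for Serpina3f (-1.94), Cxcl10 (-1.87), Cxcl3 (-1.74), Fgf2 (-1.52), Hif1a (-1.48) and Srxn1 (-1.46). Smaller negative differences were those of Ibtk (-1.39), Rhou (-1.37), Hk2 (-1.37), Dusp16 (-1.35), Slc2a1 (-1.24) and Jak2 (-1.12). The negative differences also included Stat5a (-0.94), Aldh6a1 (-0.90) and Acadsb (-0.76).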

How the results depend on the processing

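Of the 119 genes followed one by one, 113 were called. Over 31 settings 3645 results kept direction and side of the threshold, and 14 lost and 13 gained a call. The gains were 6 of Scd1, 4 of Adipoq and 1 each of Lipe, Fasn and Col4a1. The sign changed in 9 results, which were those of Lipe and Fasn, neither of them called (0.13 and 0.17). Lipe was at -0.02 under TMM and median-of-ratios scaling and -0.03 without mice 4 and 6 at 34 weeks. Fasn was at -0.02 with the replicate block and -0.36 without those mice. Leaving out 1 mouse gave Fasn changes from -0.07 to 0.53. A 2-fold minimum left 1342 genes, 743 higher and 599 lower. Leaving out 1 mouse in turn gave 4813 to 5629 called genes, 3106 to 3709 higher and 1707 to 2031 lower, and 2088 to 2734 without overlap, against 3178 without mouse 1 at 20 and mouse 5 at 34 weeks.

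The 713 genes that differed between the diets depended more on the processing, and the cause was not tested. All 6 groups fitted together gave 1084 (652 above, 432 below), weights per mouse 3294 (2286 and 1008), the macrophage covariate 1171 (644 and 527), and the length trend removed 998 (446 and 552). Scaling by TMM gave 343 above and 428 below, and median-of-ratios 342 and 502. The omissions chosen after seeing the data gave 1354 (878 and 476) without mouse 1 at 20 and mouse 5 at 34 weeks, and 1698 (1196 and 502) without mice 4 and 6 at 34 weeks. Leaving out 1 mouse gave 426 to 1132, 225 to 745 above and 194 to 405 below.

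Mouse numbers do not pair the mice, as the correlations of deviations were 0.55, -0.17, 0.25, 0.21, -0.22 and -0.30 for numbers 1 to 6. With the replicate block 5230 genes were called (3251 higher, 1979 lower) and 539 differed between the diets. The 34 week libraries were shallower, and thinning to 9275711 reads left 5414 genes.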

Other observations

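Antioxidant and glutathione enzymes were split, with 10 of 43 higher and 13 lower, and 6 higher and 14 lower under TMM scaling. Srxn1, which restores oxidized peroxiredoxins, was at 318, 406 and 616 CPM at 20 weeks and 43.7, 85.4 and 126 CPM at 34 weeks (-2.35 ± 0.22, adjusted p = 3.7e-06), and Txnrd1, thioredoxin reductase, at 282, 397 and 685 CPM and then 80.9, 140 and 227 CPM (-1.62 ± 0.23, adjusted p = 9.3e-05). Both were free of overlap between the groups. Mt2, a metallothionein that binds zinc and copper, fell from 1250, 1390 and 2190 CPM to 368, 471 and 1110 CPM (-1.57 ± 0.23, adjusted p = 0.00011).

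Over all genes 34.5% were higher and 19.0% lower, and the counts that follow stand beside these shares where no alternative setting is named. Counts with the macrophage covariate stand beside 2586 higher and 2171 lower of 10228 genes. Those under TMM scaling stand beside 2413 and 2617 of 10225. Complement genes rose in 6 of 21 and fell in 8, with 1 rise and 9 falls with the macrophage covariate. Iron handling genes rose in 8 of 21 and fell in 8, with 4 rises and 7 falls with that covariate. Cytosolic chaperones rose in 8 of 24 and fell in 10, with 4 rises and 13 falls under TMM scaling. Peroxisome genes rose in 6 of 37 and fell in 6, with 11 rises and 4 falls with the covariate.

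Other lists had shares of rises a little above that over all genes. Wnt signalling genes rose in 7 of 17 and fell in 2 (4 and 2 with the macrophage covariate), and thermogenic genes rose in 6 of 14 and fell in 2 (4 and 0). Actin and focal adhesion genes rose in 25 of 63 and fell in 6 (10 and 12). MHC class II genes rose in 3 of 7 and in 0 with the covariate.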
